A study of Mus musculus with 3 samples.

Results

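The kinetochore is the protein structure that assembles on the centromere of each chromosome and attaches it to spindle microtubules at mitosis. A set of 46 mouse genes that encode proteins of the centromere, the kinetochore, the spindle checkpoint, the chromosomal passenger complex and the protection of sister chromatid cohesion was taken as a list of names. The list has no measured value as a criterion, but earlier results of these data were known when it was drawn up. All 46 symbols were found among the 21938 protein-coding genes of the GENCODE M21 annotation on the autosomes, X and Y. The samples were mouse embryonic brain cortices at E13.5, an embryonic stage rich in dividing neural progenitors. They gave 3 ChIP-seq libraries, namely an input without antibody, an NF-Y-ChIP with an antibody against NF-YC and a H3K4me3-ChIP. The labels name no agent given to the embryos and give neither strain nor genotype nor the number of embryos pooled. Each antibody had 1 library, so no replicate error and no test between groups could be had. Intervals given for shares are Wilson 95% confidence intervals and those for medians come from order statistics. Both cover counting error alone, and the read depth behind the peak lists is unknown.

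The centromere is marked by the histone variant CENP-A, which carries the constitutive (inner) kinetochore complex on which the microtubule-binding outer kinetochore is built. Unattached kinetochores recruit Mad and Bub proteins, which hold the cell in mitosis until every chromosome is attached. Many of these genes are transcribed late in the cell cycle. NF-Y is a trimer of NF-YA, NF-YB and NF-YC that binds the CCAAT box, which reads ATTGG on the opposite strand, and promoters of late cell cycle genes often carry several such boxes followed by a cell cycle genes homology region (CHR) near the transcription start site (TSS). H3K4me3 marks the start of active or poised genes.

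The label of the tissue was checked by H3K4me3-ChIP peaks within 1000 bp of a TSS. The cortex markers Emx1, Emx2, Pax6, Sox2, Eomes, Neurod2 and Tubb3 each had one, from Eomes at a fold enrichment of 13.9 to Tubb3 at 50.6. Of 8 markers of endothelium, microglia, red cells, muscle and liver, 2 had one, Cldn5 at 9.38 and Klf1 at 30.1. None of these marker genes had an NF-Y-ChIP summit at its TSS.

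NF-Y-ChIP placed a peak at 5 of the 46 genes, namely Cenpk, Mis12, Ska2, Cenpf and Cdca8, when a summit within 1000 bp of any annotated TSS of the gene was required. They come from 5 different parts of the mitotic machinery, the inner kinetochore, the outer kinetochore, the SKA complex, the corona and the passenger complex. The share was 10.9% (95% CI 4.73 to 23.0) of the genes, against 3.17% of all protein-coding genes and 5.03% of the 13767 protein-coding genes that had a H3K4me3-ChIP peak within 1000 bp of a TSS, called marked genes here. The interval of the share contains the second of these and not the first. No gene of the CENP-A loading, checkpoint or cohesion protection groups had a summit. These groups hold 4, 5 and 3 genes, too few for an absence to be read against 5.03%. Ttk, a checkpoint kinase gene outside the list, had a summit and is described below. Among the other 41 genes the nearest NF-Y-ChIP summit lay between 29304 bp (Cenpp) and 5977157 bp (Cenpc1) from a TSS, with a median of 679717 bp.

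Sequences at these peaks are shown because they hold the boxes nearest to the summits. The Cenpf and Ska2 stretches run past the end of the peak on the side of the gene, and the CHR element of Cenpf lies outside the peak. All are GRCm38 (mm10) reference sequence read along the strand of the gene, with CCAAT or ATTGG and the CHR element TTTGAA in capitals. Cenpf is chr1:189688076-189688226 on the minus strand and Ska2 is chr11:87109044-87109233 on the plus strand. Cdca8 is chr4:124936899-124936928 on the minus strand, Mis12 is chr11:71019543-71019572 on the plus strand and Cenpk is chr13:104228901-104228930 on the plus strand.
Cenpf: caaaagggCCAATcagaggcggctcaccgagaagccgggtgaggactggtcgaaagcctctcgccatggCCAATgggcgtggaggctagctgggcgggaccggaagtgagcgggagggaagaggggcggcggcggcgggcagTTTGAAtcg
Ska2: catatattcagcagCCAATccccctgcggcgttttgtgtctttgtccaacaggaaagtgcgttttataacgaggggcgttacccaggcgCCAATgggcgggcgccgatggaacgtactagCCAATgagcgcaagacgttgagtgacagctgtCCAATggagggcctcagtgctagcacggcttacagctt
Cdca8: ATTGGctaggctgtgcccgttgagTTTGAA
Mis12: gacccacggctagCCAATcaggagtgcgat
Cenpk: ATTGGctgcggtgggcgcagctggtCCAAT

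Mis12, a subunit of the complex that links the inner kinetochore to the Ndc80 complex, had the strongest of the 5 peaks. The peak covered chr11:71019223-71019675, with a fold enrichment at the summit of 13.2, a −log10 p of 26.7 and rank 66 of the 733 NF-Y-ChIP peaks by fold enrichment. Its summit lay 69 bp upstream of the TSS of Mis12, and the gene occupies chr11:71019611-71027371. The same base lies in a UTR exon of 1 transcript of Derl2, which runs on the opposite strand and has its nearest TSS 299 bp from the summit. The peak therefore belongs by position to both genes. It held 6 boxes, and the one nearest to the summit, printed above, was centred 16 bp away.

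Cenpk, a subunit of the inner kinetochore, had a peak of nearly the same strength at chr13:104228780-104229081. The fold enrichment was 12.9, at rank 73, and the −log10 p of 28.9 was the highest of the 5. The summit lay 44 bp upstream of the nearest TSS of Cenpk, which belongs to an alternative protein-coding transcript, and 477 bp upstream of the TSS of the main (reference) transcript. It fell in a UTR exon of yet another Cenpk transcript, and the TSS of Ppwd1, a peptidyl-prolyl isomerase gene on the opposite strand, was 68 bp from it. The 2 boxes of the peak are the 2 printed above, in opposite orientations on either side of the summit, with the nearer centred 8 bp from it. None of the boxes of Cenpk falls in the window around the reference TSS used below.

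Ska2, a subunit of the SKA complex that couples kinetochores to microtubule ends, had a peak at chr11:87108829-87109228 with a fold enrichment of 10.2, at rank 121. Its −log10 p was 21.1. The summit lay 173 bp upstream of the TSS of Ska2, between genes, and was 1 bp from the centre of the first box of the printed sequence. The TSS of Prr11, a cell cycle gene on the opposite strand, was 353 bp from the summit, so that the peak sits between the starts of both genes. The peak held 8 boxes, more than any of the other 4.

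The Ska2 peak also differed from the other 4 in its place relative to H3K4me3. Its summit lay outside the H3K4me3-ChIP peaks, in a gap of 315 bp between one at chr11:87107780-87108830, on the side of Prr11, and one at chr11:87109146-87111611, over the start of Ska2. The former had a fold enrichment of 9.94 and ended 231 bp from the summit. The latter had a fold enrichment of 37.1 and began 85 bp from the summit. Of the NF-Y-ChIP peak, 83 bp (20.8%) were shared with the latter, whereas the peaks at Mis12, Cenpk, Cenpf and Cdca8 were covered at 100%. Among all 733 NF-Y-ChIP summits, 595 (81.2%) were inside a H3K4me3-ChIP peak and 39 (5.32%) were outside with a H3K4me3-ChIP peak within 1000 bp on both sides.

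Cdca8 encodes Borealin, which brings the chromosomal passenger complex to the centromere. Its peak at chr4:124936815-124937053 had a fold enrichment of 7.89, at rank 249, and a −log10 p of 17.2. The summit lay 24 bp upstream of the TSS of its main transcript, inside an intron of a longer Cdca8 transcript, and 107 bp from the TSS of 9930104L06Rik, a protein-coding gene on the opposite strand. The peak held 4 boxes, of which 3 were within 50 bp of the summit. The printed stretch runs from the third box into the CHR element that starts 13 bp after the TSS.

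Cenpf, a large protein of the fibrous corona, had the weakest of the 5 peaks. It covered chr1:189688086-189688273 with a fold enrichment of 4.95, at rank 593, a −log10 p of 7.53 and a −log10 q of 3.04. The summit lay 110 bp upstream of the TSS, with no gene annotated at that base and no TSS on the opposite strand within 1000 bp. Of these 5 promoters it was the one with no other gene to which the peak could belong by this distance. Both boxes of the peak are in the printed sequence, which ends with the CHR element 2 bp after the TSS.

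The median fold enrichment of the 5 peaks was 10.2 (range 4.95 to 13.2), beside 6.84 (interquartile range 5.50 to 8.89) for the 600 NF-Y-ChIP peaks at protein-coding TSSs. Their median width was 302 bp (188 to 453), beside 228 bp (195 to 275). Cenpk, Mis12 and Ska2 were above the upper quartile in both measures, and Cenpf was below the lower quartile in both. The summits lay 24 to 173 bp upstream of the nearest TSS with a median of 69 bp, and the 695 protein-coding targets had their median 62 bp upstream. All 5 peaks had a box within 50 bp of the summit, as did 646 of 732 peaks (88.3%) on the chromosomes examined.

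**Figure D1:**
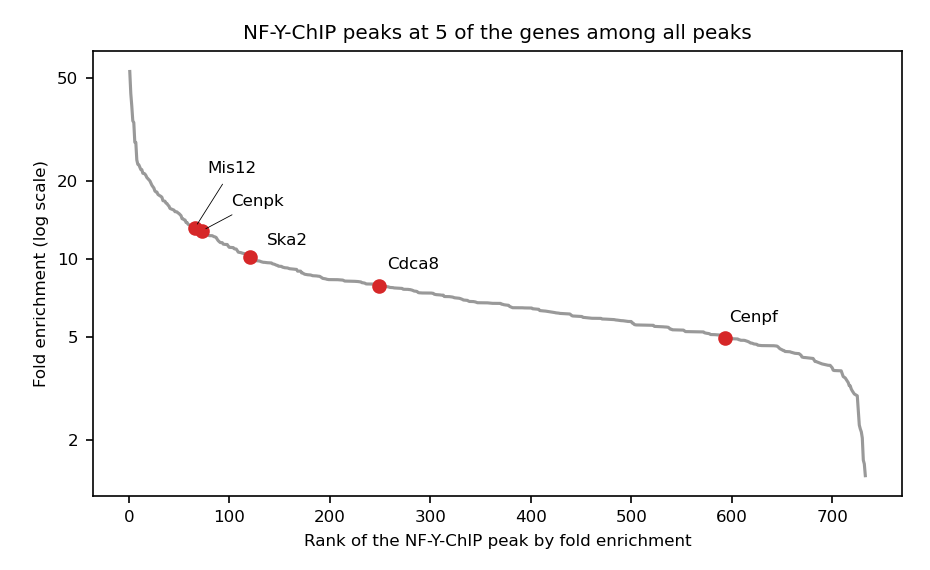
All 733 NF-Y-ChIP peaks of E13.5 cortices are plotted by rank (x axis) against fold enrichment at the summit (y axis, log scale, grey line), with the peaks at 5 kinetochore and passenger complex genes as red points. Mis12, Cenpk and Ska2 lie at ranks 66, 73 and 121, Cdca8 at 249 and Cenpf at 593.

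The boxes of all 46 promoters were then counted from 200 bp before to 50 bp after the reference TSS, the start of 1 main transcript for each gene. CCAAT or ATTGG was present in 26 genes (56.5%, 95% CI 42.2 to 69.8), against 33.9% of the marked genes. Of the 46 genes 12 had 2 or more boxes (26.1%, 15.6 to 40.3), against 11.8%. Both intervals lie above the share of the marked genes. The 26 genes held 45 boxes, 27 of them reading CCAAT along the gene, and 33 started upstream of the TSS. The median start was 47 bp upstream, and 7 genes (Cenpa, Cenpc1, Cenph, Cenpi, Cenpe, Sgo1 and Sgo2a) had all their boxes at or after the TSS. The window holds 200 bp before the TSS and 50 bp after it, so more starts fall upstream by its length alone. No share of the marked genes stands beside these positions and strands, which are a description. With the window ended at the TSS, a window chosen after the positions were seen, 19 genes had a box (41.3%, 28.3 to 55.7), against 31.1% of the marked genes, a share within the interval. From 100 bp before to the TSS it was 17 genes (37.0%, 24.5 to 51.4), against 21.3%, and from 500 bp before to 100 bp after it was 35 (76.1%, 62.1 to 86.1), against 54.4%.

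The NF-Y-ChIP summits went with the number of boxes over the marked genes as a whole. A summit was present in 1.48% (95% CI 1.25 to 1.75) of 9100 marked genes without a box, in 5.52% (4.76 to 6.39) of 3045 with 1 box, in 18.2% (16.1 to 20.6) of 1107 with 2 boxes and in 36.3% (32.3 to 40.6) of 515 with 3 or more. Among the 46 genes, 1 of 20 without a box had a summit (Cenpk, whose boxes are outside the window). None of the 14 with 1 box had one. With 2 boxes it was 1 of 8, Cenpf, and with 3 or more it was 3 of 4, namely Cdca8, Mis12 and Ska2. Taken over 2 or more boxes, 4 of 12 genes had a summit (33.3%, 13.8 to 60.9), against 24.0% of the 1622 marked genes of that kind, and the interval contains the latter share.

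**Figure D2:**
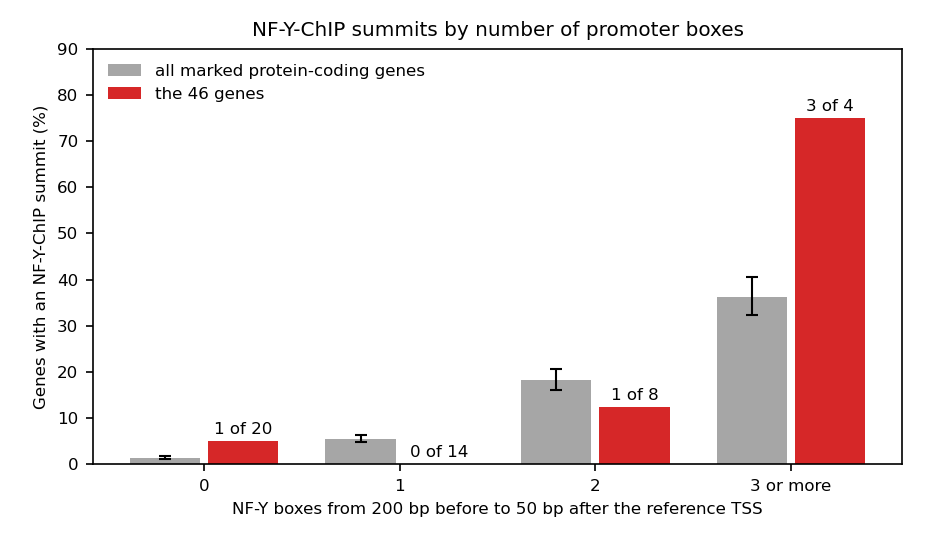
The share of genes with an NF-Y-ChIP summit within 1000 bp of a TSS (y axis, %) is shown by the number of CCAAT or ATTGG boxes in the promoter window (x axis), for all marked protein-coding genes (grey, error bars are Wilson 95% confidence intervals) and the 46 genes (red, counts printed above). The grey share runs from 1.48% without a box to 36.3% with 3 or more, where 3 of the 4 kinetochore and passenger complex genes have a summit.

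The 8 genes with 2 or more boxes and no NF-Y-ChIP peak were Oip5, Cenpa, Cenpl, Spc25, Zwint, Ska1, Bub1 and Incenp. Oip5, which loads CENP-A, held 4 boxes, starting at 199, 148, 116 and 65 bp upstream, as many as Ska2 and Cdca8. Spc25 (78 and 46 bp upstream) and Ska1 (90 and 59 bp upstream) had both boxes upstream of the TSS, as did Bub1 (62 and 36 bp upstream). In Cenpl and Zwint 1 of the 2 boxes started after the TSS, and in Cenpa they started at the TSS and 23 bp after it. Incenp, the scaffold of the passenger complex, had boxes 8 bp before and 35 bp after the TSS. At the depth of this library a peak was not called at any of these, which does not show that NF-Y is absent.

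The distance between neighbouring boxes was also read, over 19 pairs in these promoters. Of them 7 pairs, in Oip5, Mis12, Spc25, Ska1, Ska2 and Cdca8, started 31 to 34 bp apart, a range chosen after the positions were seen. In Ska2 the boxes at 101, 70 and 38 bp upstream followed each other at 31 and 32 bp, and in Mis12 and Cdca8 the spacing was 34 bp. Oip5 and Spc25 had 32 bp and Ska1 31 bp. Thus 6 of the 12 genes with 2 or more boxes had this spacing, and 3 of the 6 carried an NF-Y-ChIP summit. Since the range was set from these same pairs, the count is a description and no excess can be read from it. Among the 1622 marked genes with 2 or more boxes, 244 (15.0%) had it, and 90 of the 244 (36.9%) had a summit, against 21.7% of those without. The number of boxes differed between these, so that the shares are also given within it. With 2 boxes a summit was present in 26.2% (19.2 to 34.7) of the genes with the spacing and in 17.3% (15.0 to 19.7) of the others, and with 3 or more boxes in 47.5% (38.9 to 56.3) and 32.8% (28.4 to 37.6). Mis12, Ska2 and Cdca8, the spaced genes with a summit, all have 3 or more boxes, as does Oip5 without one, while the spaced genes with 2 boxes, Spc25 and Ska1, have no summit. No gene among the 46 has 3 or more boxes and another spacing alone, so the spacing and the number of boxes cannot be told apart there.

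**Figure D3:**
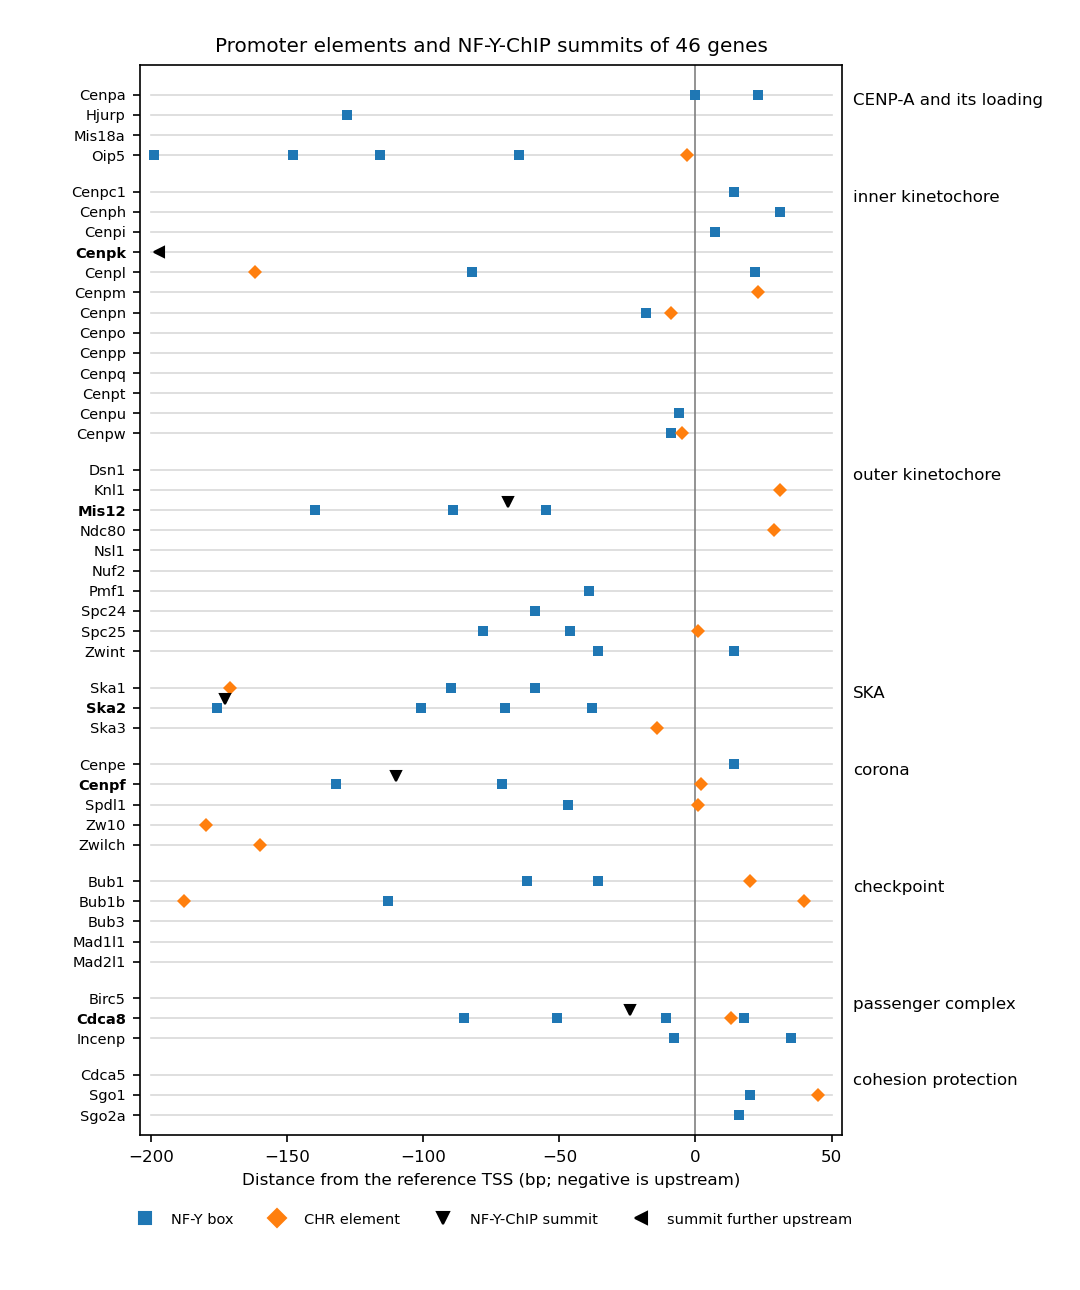
Each line is the promoter of 1 of the 46 genes, from 200 bp before to 50 bp after the reference TSS (x axis, bp, negative is upstream), grouped by complex, with starts of CCAAT or ATTGG boxes (blue squares), starts of CHR elements (orange diamonds) and NF-Y-ChIP summits (black triangles, genes in bold). The arrowhead at Cenpk marks a summit 477 bp upstream, and CHR elements gather near the TSS in 14 genes, 2 of which have a summit.

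The CHR element, searched as TTTGAA or TTCGAA on either strand, is bound by the MuvB core that acts in the DREAM and B-MYB complexes. It was found from 200 bp before to 50 bp after the TSS in 18 of the 46 genes (39.1%, 26.4 to 53.5), against 9.81% of the marked genes. In 14 of them it lay within 50 bp of the TSS (30.4%, 19.1 to 44.8), against 3.1%, in a window chosen after the positions were seen. A box together with a CHR element near the TSS was present in 10 genes (21.7%, 12.3 to 35.6), against 1.46%, with the same window chosen after the positions were seen. For the wider window the interval lies above the share of the marked genes, and for the narrower one the values are a description. Of the 14 genes with the element near the TSS, 2 had an NF-Y-ChIP summit, Cenpf and Cdca8 (14.3%, 4.01 to 39.9). Among the 427 marked genes with the element near the TSS, 10.5% had one, a share within that interval.

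Promoters with a box and a CHR element but without an NF-Y-ChIP peak are shown for comparison with Cenpf and Cdca8. Spc25, a subunit of the Ndc80 complex, is chr2:69206170-69206280 on the minus strand, and Bub1, a kinase of the checkpoint, is chr2:127831836-127831935 on the minus strand. Spdl1 (Spindly), which brings dynein to the kinetochore, is chr11:34833621-34833701 on the minus strand. Cenpn, which reads the CENP-A nucleosome, is chr8:116921710-116921750 on the plus strand, and Cenpw, a histone-fold subunit of the inner kinetochore, is chr10:30200550-30200590 on the minus strand. The capitals mark CCAAT or ATTGG and the CHR element, which reads TTCAAA where it lies on the opposite strand.
Spc25: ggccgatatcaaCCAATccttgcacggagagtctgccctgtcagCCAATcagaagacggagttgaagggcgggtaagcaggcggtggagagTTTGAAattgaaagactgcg
Bub1: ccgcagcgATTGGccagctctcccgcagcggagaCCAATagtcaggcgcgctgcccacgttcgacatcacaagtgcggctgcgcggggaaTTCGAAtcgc
Spdl1: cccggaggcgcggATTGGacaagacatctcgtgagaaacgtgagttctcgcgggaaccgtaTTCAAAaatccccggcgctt
Cenpn: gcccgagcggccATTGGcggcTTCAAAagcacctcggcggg
Cenpw: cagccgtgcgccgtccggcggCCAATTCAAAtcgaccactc

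The distance from a box to the CHR element after it varied among these 10 genes. It was 47 bp in Spc25, 48 bp in Spdl1, 56 bp in Bub1, 62 bp in Oip5 and 73 bp in Cenpf, counted from start to start. It was 24 bp in Cdca8 and 25 bp in Sgo1 (shugoshin, which protects centromeric cohesion), 9 bp in Cenpn and 153 bp in Bub1b. In Cenpw it was 4 bp, so that the last base of the box is the first of the element. The other 4 genes with the element near the TSS, Cenpm, Knl1, Ndc80 and Ska3, had no box in the window. Cenpl, Zwilch, Zw10 and Ska1 had an element between 180 and 160 bp upstream and none near the TSS.

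Other promoter elements were close to the background. The GC box GGGCGG, to which SP factors bind, was present in 30 of the 46 genes (65.2%, 50.8 to 77.3), against 63.1% of the marked genes. An E2F-type site (TTTCCCGC, TTTGGCGC, TTTCGCGC or TTTGCCGC on either strand, searched after other values were seen) was present in 2 genes (4.35%, 1.2 to 14.5), against 3.68%. These were Cenpl, with 2 sites, and Dsn1, a subunit of the Mis12 complex, with 1. The absence of these letters from a window says nothing of the factor.

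H3K4me3-ChIP marked every one of the 46 genes, a share of 100% (92.3 to 100), against 62.8% of all protein-coding genes. In each gene the peak covered an annotated TSS, for which no share of the marked genes is given. The median fold enrichment was 41.7 (95% CI 32.4 to 47.0, range 16.2 to 77.2), and the interval contains the median of all marked genes, 39.9. Of the 46 genes 25 were above that median. The peaks had a median width of 1656.5 bp (1377 to 1788), an interval that contains the 1404 bp of all marked genes. The summit of the mark lay downstream of the reference TSS in 41 genes (89.1%, 77.0 to 95.3), against 81.3% of all marked genes. The median was 214.5 bp over all 46 and 204 bp over all marked genes, so this position was the general one. It lay upstream in Cenpk (701 bp), Mis12 (530 bp), Zwilch (468 bp), Cdca5 (218 bp) and Ndc80 (154 bp). In whole cortex, fewer cells with the mark and less of it in each cell cannot be told apart.

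Within this range the levels differed among genes of the same complex. Mad1l1, which recruits Mad2 to unattached kinetochores, had the highest fold enrichment of the 46 genes at 77.2, while its partner Mad2l1 had 24.3. Bub1b, which encodes the checkpoint protein BubR1, had 22.6, the third lowest, and Bub1 had 25.6, beside 45.5 for Bub3. The checkpoint genes therefore had a median of 25.6, with Mad1l1 and Bub3 well above the other 3. Genes of CENP-A and its loading showed the same kind of split. Cenpa itself had 59.0, and its chaperone Hjurp and the loading factors Mis18a and Oip5 had 19.3, 23.1 and 23.4.

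In the inner kinetochore the 13 genes ranged from Cenpi at 16.2, the lowest of all 46, to Cenph at 60.4, with a median of 42.3. CENP-I and CENP-H are subunits of the same complex with CENP-K, whose gene had 55.0. The 10 outer kinetochore genes had a median of 43.4 and included Mis12 at 76.1, the second highest of all, and Knl1, the scaffold that recruits Bub proteins, at 66.4. Ndc80, which binds microtubules directly, had 24.0, the lowest of the outer group, while Spc25 of the same complex had 52.7. In the SKA complex Ska3 had 67.4, the third highest, beside 45.2 for Ska1 and 37.1 for Ska2. The 5 corona genes were the group with the highest median, 52.9, from Spdl1 at 34.7 to Zwilch at 65.6. The passenger complex genes Incenp, Birc5 (survivin) and Cdca8 had 32.4, 38.3 and 52.8, and Sgo1, Cdca5 (sororin) and Sgo2a had 23.6, 32.2 and 44.0. With 1 value per gene these differences have no error.

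The 5 genes with an NF-Y-ChIP summit had H3K4me3 fold enrichments of 76.1 (Mis12), 55.0 (Cenpk), 52.9 (Cenpf), 52.8 (Cdca8) and 37.1 (Ska2). Their median of 52.9 stood beside 40.2 (16.2 to 77.2) for the other 41, and 4 of the 5 were above the median of all marked genes, against 21 of the 41. The ranges overlapped, since the 5 lay wholly within the range of the 41. Their widths ran from 1860 to 2466 bp, within the 772 to 2647 bp of the other 41. Over all marked genes the medians were 46.7 for the 692 with a summit and 39.4 for the 13075 without. Above the median of all marked genes were 461 of the 692 and 6422 of the 13075, so a higher mark with a summit was general. The NF-Y-ChIP summit lay 224 bp (Cenpk) to 590 bp (Ska2) from the summit of the strongest H3K4me3-ChIP peak of the gene.

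**Figure D4:**
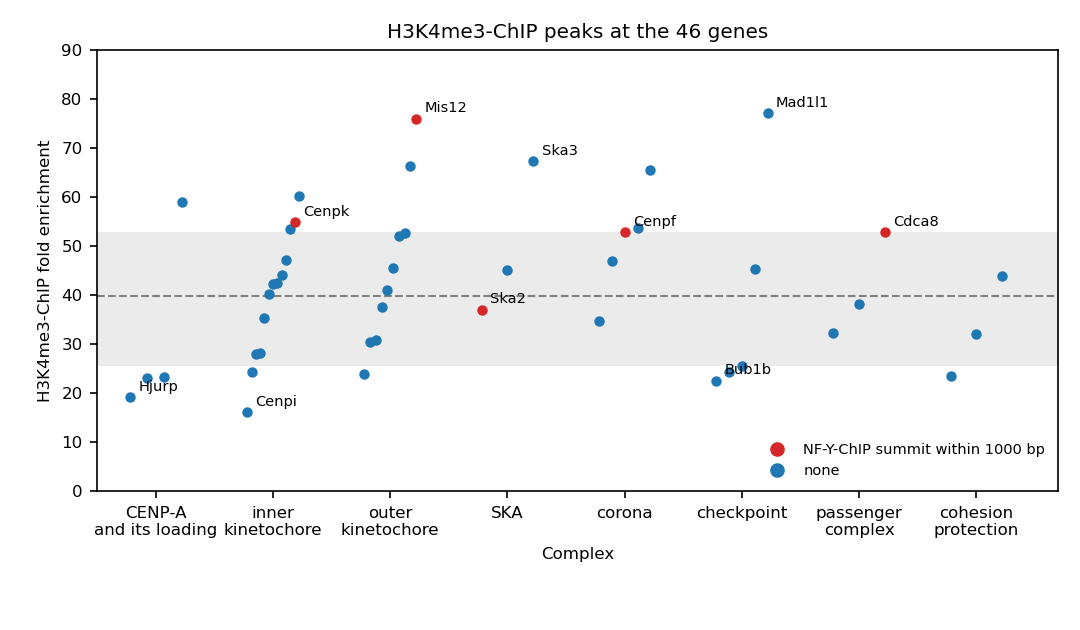
H3K4me3-ChIP fold enrichment (y axis) of each of the 46 genes is shown by complex (x axis), with genes that have an NF-Y-ChIP summit in red and the others in blue, ordered by value within a complex. The dashed line is the median (39.9) and the grey band the interquartile range (25.7 to 52.7) of all 13767 marked genes, and the points run from Cenpi at 16.2 to Mad1l1 at 77.2.

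Many of the 46 genes shared their promoter region with another gene. A protein-coding gene that starts within 1000 bp upstream on the opposite strand was present for 12 of them (26.1%, 15.6 to 40.3), against 12.9% of the marked genes. These pairs included Hjurp with Trpm8, Cenpk with Ppwd1, Cenpn with Cmc2, Cenpp with Nol8, Nsl1 with Tatdn3, Ska2 with Prr11, Ska3 with Mrpl57, Zwilch with Rpl4, Mad1l1 with Nudt1, Cdca8 with 9930104L06Rik and Cdca5 with Zfpl1. The starts were between 27 bp (Cdca5) and 545 bp (Cenpk) apart. Mis12, Oip5, Cenpo and Cenpq instead overlapped head to head with Derl2, Nusap1, Ptrhd1 and Mut, whose nearest start lay 171 to 362 bp downstream of their own. Counted on either side of the TSS, 16 of the 46 genes (34.8%, 22.7 to 49.2) had a protein-coding start on the opposite strand within 1000 bp, against 16.3% of the marked genes. Of the 5 genes with an NF-Y-ChIP summit 4 had one (80.0%, 37.6 to 96.4), against 24.3% of the 692 marked genes with a summit, in which both genes of a pair can be counted for the same peak. The H3K4me3-ChIP values of Mad1l1, Ska3 and Mis12, the highest 3, came from such shared regions. So did the low values of Hjurp (19.3) and Oip5 (23.4), while Cenpi (16.2) and Bub1b (22.6) had no such start within 1000 bp. Whether the mark differed with sharing was not tested, and the peak lists do not assign a mark to a strand.

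A list of 20 further genes of the same machinery was read for comparison. All 20 had a H3K4me3-ChIP peak, 9 had a box in the promoter window (33.9% of all marked genes did) and 4 had 2 or more (11.8% of all marked genes). An NF-Y-ChIP summit was present at 2 of them, beside 5.03% of all marked genes. Ttk, which encodes the checkpoint kinase Mps1, had a peak with a fold enrichment of 15.0, at rank 50, and a summit 33 bp upstream of the TSS, with 2 boxes in the window. This was above the value of any of the 5 peaks described above. Clasp2, a microtubule plus-end protein, had a peak with a fold enrichment of 6.50, at rank 383, 10 bp upstream, with 1 box. Cenpx with 5 boxes, Aurkb, the kinase of the passenger complex, with 3 and Cdc20, the target of the checkpoint, with 2 had no NF-Y-ChIP peak.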

How the data were processed

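NF-Y-ChIP and H3K4me3-ChIP of E13.5 mouse cortices were read from 2 deposited peak lists, 1 library each, and the input has no peak list used here. Per the study's methods, reads were passed through Trimmomatic and mapped by Bowtie 2 to mm10, which is GRCm38. MACS2 then called the peaks, with the limit set on the p-value at 0.001 in NF-Y-ChIP but on the q-value at 0.05 in H3K4me3-ChIP. The submitters' processing notes give Bowtie2 2.2.8 and MACS2 2.1.2. The study names its input as the negative control of the ChIP, but whether MACS2 was given it is not stated in the sources used here. Fold enrichment, as deposited, is a ratio of the summit's signal to a background that MACS2 estimates, from the control if one was given, and was not compared between the 2 lists. Each peak also has a deposited −log10 p-value and −log10 q-value. All overlaps and gaps refer to the lists as used here, with 733 and 18816 peaks. The NF-Y-ChIP list has as many peaks as the study gives regions. The H3K4me3-ChIP list has fewer, so it may not hold every region the study called. The lists carry no sample name. Their antibody was told by whether the score the authors deposited follows p-values (NF-Y-ChIP) or q-values (H3K4me3-ChIP), together with the stated limits.

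TSSs were the 5′ ends of GENCODE M21 transcripts. The reference TSS was that of the APPRIS principal transcript, then the GENCODE basic set, the lowest support level and the longest. Where a gene had several H3K4me3-ChIP peaks, the strongest was taken. Element positions are starts relative to the reference TSS, counted as 0. Genes named with full values were those with an NF-Y-ChIP summit, the 3 highest and 3 lowest in H3K4me3, those with 2 or more boxes and no peak, and their partners on the opposite strand; other genes are given within their complex. Members and lists were chosen with earlier results of these data known. A marker gene and a partner gene are not reported here. The functions were tested on simulated data. The genome was read with samtools 1.23.1 and pysam 0.24.0, intervals were computed with SciPy 1.17.1 and NumPy 2.4.6, and tables and plots were made with pandas 2.3.3 and matplotlib 3.10.9 under Python 3.11.15.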

Additional observations from a re-analysis of the deposited data

How the results depend on the processing

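Over 10 results 34 alternatives were tried. Counts within 1.5 times the reported one, and medians within its interval, were taken as not moved, which left 1 that moved. For the NF-Y-ChIP medians that interval was the full range of the 5 values, a wide limit. The alternatives for their fold enrichment kept the same 5 peaks, so that median could not change, and these do not show stability. The number of the 46 genes with a CCAAT or ATTGG box, 26 as reported, was 17 when the window ran from 100 bp before to the TSS, a shorter window. There the share was 37.0% (24.5 to 51.4), against 21.3% of the marked genes. The number was 35 from 500 bp before to 100 bp after the TSS (76.1%, 62.1 to 86.1), against 54.4%. It was 19 from 200 bp before to the TSS, a window chosen after seeing the data. In that window the interval of the share contained that of the marked genes. The number with an NF-Y-ChIP summit was 5 under all 8 alternatives of distance, threshold and TSS set, one of which was the wider rule of the study, with 5 kb upstream and the gene body. The number with a H3K4me3-ChIP peak was 46 except among the stronger part of the list, cut at its median fold enrichment, where it was 36. That cut is the median of all 18816 peaks and not of the marked genes. No share of all genes under it is given, so no excess can be read from the 36. Of the 46 genes 25 were above the median of the marked genes. The number of NF-Y-ChIP peaks shared with the mark was 4 in place of 5 when an overlap of at least 50% was asked, which left out Ska2. The median NF-Y-ChIP summit of the 5 genes was at -110 bp with reference TSSs alone in place of -69 bp, within the full range of the 5 summits, -173 to -24 bp. No paired analysis was possible because each antibody has 1 library and no result comes from a test. Read depth cannot be had from the lists, and a peak that was not called is not shown to be absent.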
